A study of Mus musculus with 3 samples.

Results

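Coagulation and plasminogen system genes were described across the cells of a mouse muscle wound that held a synthetic implant. The members were chosen by symbol: F3, F10, F13a1, Thbd, Plau, Plaur, Plat, Serpine2 and Serpinb2, which are 9 of the 32285 genes in the deposited matrices. Each symbol occurred on 1 row, with the Ensembl identifiers ENSMUSG00000028128 (F3), ENSMUSG00000031444 (F10), ENSMUSG00000039109 (F13a1), ENSMUSG00000074743 (Thbd), ENSMUSG00000021822 (Plau), ENSMUSG00000046223 (Plaur), ENSMUSG00000031538 (Plat), ENSMUSG00000026249 (Serpine2) and ENSMUSG00000062345 (Serpinb2).

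The study placed polycaprolactone (PCL) particles, a degradable polyester, into a surgical volumetric muscle loss (VML) defect of the hindlimb in C57BL/6 WT mice and took the quadriceps and the fibrotic implant at 6 weeks. CD45+ and CD45- fractions from magnetic sorting were recombined in equal cell numbers, so shares of immune and stromal cells were set by the mixing. Unique molecular identifiers (UMIs) were counted per gene and cell in 3 libraries of this 1 group. There was no uninjured, unimplanted or untreated group, so comparisons are between cell classes within libraries, and the labels do not say whether the 3 replicates are separate animals, so p-values measure the spread between these libraries, which may be technical.

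Tissue factor, encoded by F3, starts clotting when it meets plasma factor VII, and the complex activates factor X, encoded by F10. Thrombin then forms, fibrin is laid down and the transglutaminase whose A chain is encoded by F13a1 crosslinks it, while thrombomodulin, encoded by Thbd, turns thrombin toward activation of the anticoagulant protein C. Fibrin is removed by plasmin, which is released from plasminogen by the tissue-type activator Plat and the urokinase-type activator Plau, the second of which is held at the cell surface by its receptor Plaur; the serpins Serpine2 (protease nexin 1) and Serpinb2 (plasminogen activator inhibitor 2) inhibit these activators, and Serpine2 also inhibits thrombin.

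The libraries held 6068, 8643 and 4996 barcodes with 136519688, 192348779 and 104482261 UMIs, and 5658, 7692 and 4606 cells remained after filtering. Clusters were named from marker genes as X-like classes, with the members left out of the genes used for clustering; the clusters nevertheless come from the same cells, through genes that may vary with the members. Of the 12 classes with at least 20 cells in every library, 9884 cells were fibroblast-like, 2986 macrophage-like, 911 neutrophil-like, 864 blood endothelial-like, 609 monocyte-like, 333 mural-like and 237 lymphatic endothelial-like. Fibroblast-like cells made up 52.5% ± 16.4 and macrophage-like cells 18.3% ± 9.68 of cells (SD, n = 3), with library 2 holding 5479 of the fibroblast-like and 558 of the macrophage-like cells. Of the markers fixed for each class, 8 of 10 macrophage, 6 of 7 monocyte, 7 of 8 blood endothelial and 4 of 8 fibroblast markers had their highest mean in that class; fibroblast-like and tenocyte-like cells share collagen genes. Another 1046 cells stayed unnamed. Pairs of libraries shared 10 to 13 barcodes.

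Upstream sequence was available for 6 of the 9 members in RefSeq's table for GRCm38.p6, and 5 promoters are shown because their genes show the contrasts described here: Serpinb2 and Serpine2 within fibroblast-like cells, and F10, F13a1 and Plaur among myeloid classes. Each sequence is the 250 bases before the annotated start, 5′ to 3′ on the gene's strand. Capitals mark TGANTCA (the AP-1 element), GAGGAA (a core bound by PU.1) and TATAAA (the TATA box), searched on both strands.
Serpinb2, chr1:107511173-107511422, plus strand: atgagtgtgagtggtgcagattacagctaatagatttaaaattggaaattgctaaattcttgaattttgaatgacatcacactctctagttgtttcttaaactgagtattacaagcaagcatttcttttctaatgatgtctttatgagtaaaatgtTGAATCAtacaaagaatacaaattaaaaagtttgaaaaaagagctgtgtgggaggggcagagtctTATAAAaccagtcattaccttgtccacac
Serpine2, chr1:79858666-79858915, minus strand: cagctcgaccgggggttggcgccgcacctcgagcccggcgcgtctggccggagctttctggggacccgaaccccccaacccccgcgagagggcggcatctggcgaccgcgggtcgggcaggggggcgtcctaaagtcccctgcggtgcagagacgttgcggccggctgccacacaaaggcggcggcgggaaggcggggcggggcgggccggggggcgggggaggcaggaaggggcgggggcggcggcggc
F10, chr8:13037058-13037307, plus strand: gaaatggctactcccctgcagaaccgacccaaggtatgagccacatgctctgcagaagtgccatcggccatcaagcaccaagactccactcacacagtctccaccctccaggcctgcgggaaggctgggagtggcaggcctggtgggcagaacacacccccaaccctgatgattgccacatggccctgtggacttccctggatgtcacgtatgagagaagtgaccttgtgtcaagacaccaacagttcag
F13a1, chr13:37050245-37050494, minus strand: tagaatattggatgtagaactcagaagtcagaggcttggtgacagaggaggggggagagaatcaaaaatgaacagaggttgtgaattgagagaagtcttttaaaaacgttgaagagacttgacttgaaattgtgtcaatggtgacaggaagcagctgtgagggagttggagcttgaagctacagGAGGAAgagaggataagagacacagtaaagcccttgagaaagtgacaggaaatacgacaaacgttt
Plaur, chr7:24462233-24462482, plus strand: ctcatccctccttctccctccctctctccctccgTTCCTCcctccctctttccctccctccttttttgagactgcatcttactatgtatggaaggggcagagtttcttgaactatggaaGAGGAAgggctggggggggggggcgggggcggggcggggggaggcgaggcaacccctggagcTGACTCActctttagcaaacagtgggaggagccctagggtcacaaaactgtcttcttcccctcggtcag
Serpinb2 and F13a1 have 2 annotated starts each. The Serpinb2 window printed is that of the first start, and the second held the same motifs. The F13a1 window printed is that of the second start, picked because it holds a motif; the window of the first start held none of the 3. The Serpinb2 window held 1 TGANTCA and 1 TATAAA, the Plaur window 1 TGANTCA and 2 GAGGAA, and the F13a1 window 1 GAGGAA. The Serpine2 and F10 windows held none of the 3, and the F3 window, not printed, held 2 TGANTCA. Among 32851 RefSeq promoters of the same length, 6.75% held TGANTCA, 23.2% GAGGAA and 12.4% TATAAA. These matches describe the letters in the windows; binding was not measured.

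Levels are given as UMIs of the gene per 1000000 UMIs of the class in that library (CPM), and are compared between classes, not between genes. Since they are relative to each class's total RNA, a class with more UMIs per cell, such as fibroblast-like cells, can hold more molecules per cell at the same CPM. Differences come from edgeR's quasi-likelihood test on UMIs summed per library and class, with the library as a block and Benjamini-Hochberg adjustment over all genes tested; a gene was called at an adjusted p under 0.05 and a log2 difference of at least 1 either way.

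F3 was highest in fibroblast-like cells, at 36.2, 47.2 and 53.0 CPM in libraries 1, 2 and 3. Schwann-like cells, with 63 cells in all, had 28.7, 17.0 and 48.8 CPM, a range that overlaps that of fibroblast-like cells. Neutrophil-like cells had 19.9, 25.2 and 20.5 CPM, above macrophage-like cells at 6.85, 5.59 and 9.62 CPM in every library. Fibroblast-like cells held 93.7% ± 3.57 of all F3 UMIs (SD, n = 3), which their number also sets.

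F10 was a myeloid transcript. Macrophage-like cells had 225, 231 and 196 CPM, neutrophil-like cells 115, 213 and 172 CPM and monocyte-like cells 190, 177 and 117 CPM. The neutrophil-like range overlaps each of the other two, while every macrophage-like value lay above every monocyte-like value. All lie far above fibroblast-like cells at 0.803, 0.298 and 0.573 CPM. In cells thinned to 5000 UMIs, 49.7% ± 1.68 of macrophage-like and 0.374% ± 0.164 of fibroblast-like cells held an F10 UMI, against 63.9% and 1.49% before thinning. Of these classes, 563 of 2986 macrophage-like and 292 of 9884 fibroblast-like cells were too shallow to thin and were left out. Thinned monocyte-like cells held one in 41.6% (66 of 609 left out). Thinned neutrophil-like cells did so in 19.5% ± 5.39 (427 of 911 left out), a minority at a similar CPM. The fibroblast-like shares serve as the background level for a UMI in cells of a class that held almost none of the transcript; median depth was 13870 UMIs in macrophage-like and 26582 in fibroblast-like cells.

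F13a1 was highest in monocyte-like cells, with 750, 614 and 489 CPM, against 72.1, 78.7 and 104 CPM in macrophage-like cells. The ranges do not overlap, and the lowest monocyte-like value lay far above the highest macrophage-like value. Dendritic cell-like classes came next and overlapped macrophage-like cells, while fibroblast-like, blood endothelial-like and mural-like cells stayed at or under 0.951 CPM in every library.

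Thbd was highest in vessel classes. Blood endothelial-like cells had 203, 185 and 149 CPM, above mural-like cells at 146, 132 and 104 CPM. Lymphatic endothelial-like cells spread widely, at 196, 99.6 and 66.3 CPM, overlapping both. Fibroblast-like cells had 52.5, 50.2 and 64.3 CPM, below each of these classes, yet they held 77.9% ± 8.80 of all Thbd UMIs and were the most numerous cells.

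Plau was highest in fibroblast-like cells, at 42.4, 48.7 and 32.8 CPM, which overlapped lymphatic endothelial-like cells at 39.3, 31.1 and 30.9 CPM. Macrophage-like cells had 15.7, 15.3 and 10.9 CPM. Its receptor followed another order: Plaur was highest in neutrophil-like cells at 749, 750 and 611 CPM, then monocyte-like cells at 492, 483 and 391 CPM, then macrophage-like cells at 317, 303 and 254 CPM. None of these 3 neighbouring ranges overlap, and fibroblast-like cells had 29.4, 30.5 and 21.3 CPM.

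Plat was highest in fibroblast-like cells at 306, 339 and 319 CPM, then tenocyte-like cells at 186, 173 and 252 CPM, without overlap. Macrophage-like cells had 5.84, 9.61 and 5.06 CPM, 2.13% of the fibroblast-like mean; with no doublets removed they had 8.84, 20.9 and 8.62 CPM, a mean of 12.8 CPM. The 8 fibroblast markers lay at 1.02% to 2.12% of their fibroblast-like level in macrophage-like cells, and whether this Plat signal came from free fibroblast RNA was not tested.

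The serpins differed from each other. Serpine2 was highest in mural-like cells at 812, 1047 and 850 CPM, above fibroblast-like cells at 250.0, 296 and 317 CPM, while Schwann-like cells at 249.9, 266 and 317 CPM overlapped the fibroblast-like range. Serpinb2 was almost a fibroblast-like transcript: 130, 104 and 96.9 CPM there, against 6.04, 12.01 and 10.5 CPM in monocyte-like cells, the next class. Fibroblast-like cells held 98.8% ± 0.481 of all Serpinb2 UMIs.

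**Figure D1:**
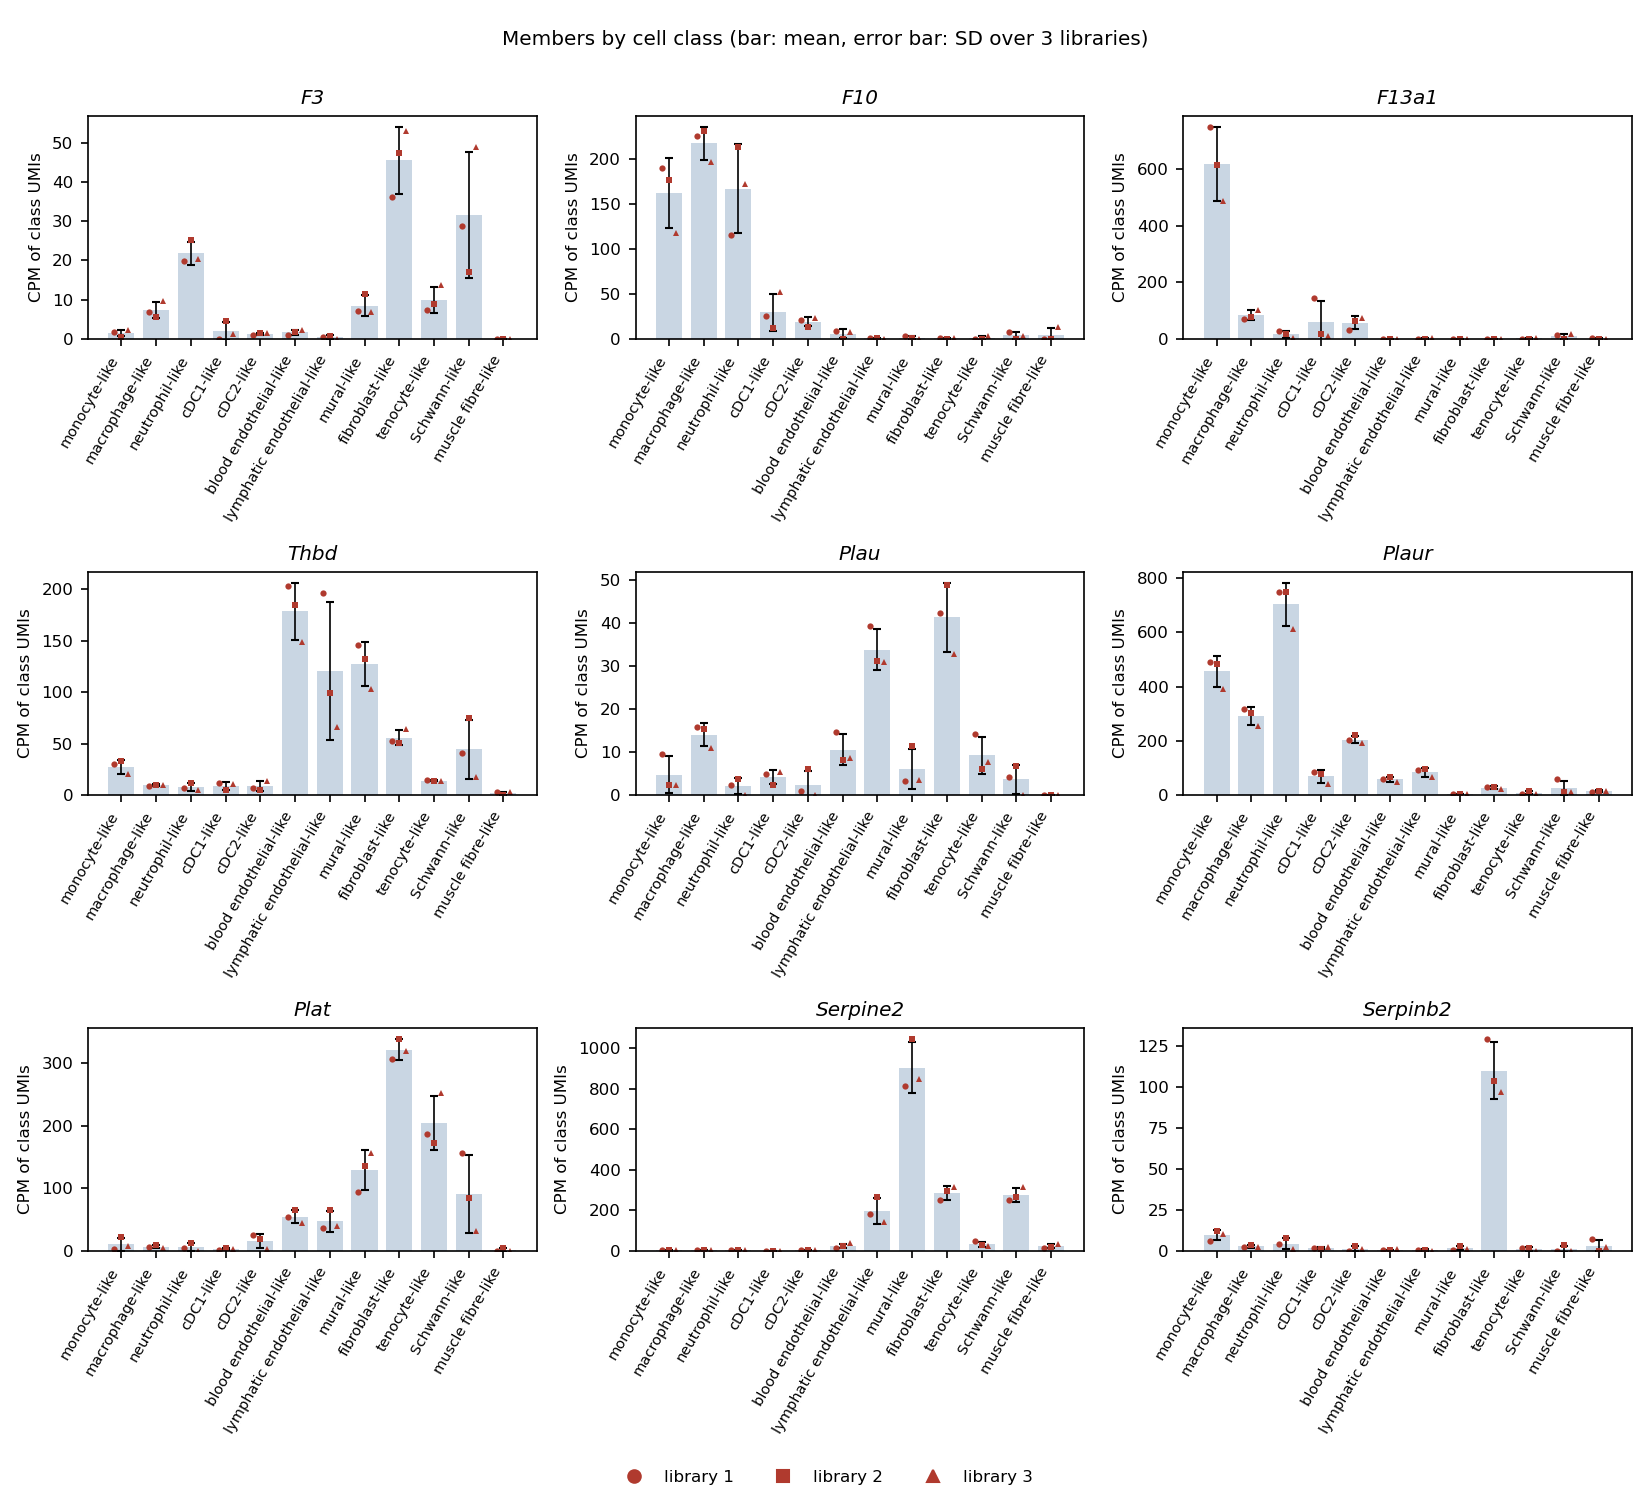
CPM of each member (y axis, linear, a scale per panel) in 12 cell classes (x axis), with bars for the mean, error bars for the SD and points for the 3 libraries. F10, F13a1 and Plaur stand high in myeloid classes on the left, Thbd in vessel classes, and Serpine2 in mural-like cells at 903 CPM.

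Macrophage-like cells were then set against fibroblast-like cells. All 9 members were called, 3 higher (F10, F13a1 and Plaur) and 6 lower (F3, Thbd, Plau, Plat, Serpine2 and Serpinb2). In this comparison 44.1% of 13521 genes tested were called either way, 19.8% higher and 24.3% lower, so calls were common between such distant classes. F10 was higher by 8.78 ± 0.42 on the log2 scale (SE; edgeR adjusted p 7.38e-19), F13a1 by 7.10 ± 0.45 (edgeR adjusted p 9.84e-16) and Plaur by 3.56 ± 0.21 (edgeR adjusted p 1.13e-16). With no doublets removed, these differences were 7.64 for F10 and 6.51 for F13a1. In fibroblast-like cells F10 was at 0.257% of its macrophage-like level, and the 10 macrophage markers at 0.305% to 41.5% of theirs. How far background sets the size of the F10 difference was not tested. Serpine2 fell by 5.73 (by 6.37 without replicate 1), Plat by 5.50 (by 4.81 with no doublets removed) and Serpinb2 by 5.26 on the log2 scale. F3, Thbd and Plau fell by 2.47, 2.46 and 1.46. The activators and inhibitors were thus lower and the urokinase receptor higher in macrophage-like cells, each in 3 of 3 libraries.

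Of 41 other genes of the system listed for this description, 23 were tested here. Of these, 7 were higher and 12 lower, where 19.8% and 24.3% of all genes were. Their median log2 difference was -1.08 against 0.06 over all genes. The list was chosen with earlier results of these data known, so its counts and medians, here and below, are a description and not a test. F7, the plasma partner of tissue factor, had 162 ± 15.9 CPM in macrophage-like cells and 0.822 ± 0.257 CPM in fibroblast-like cells (SD, n = 3; log2 7.77, edgeR adjusted p 2.39e-18). The cofactor F5 was also higher (log2 5.75), as was Vwf, the platelet-binding factor of endothelium (log2 5.46). Vtn, which binds urokinase receptor, was lower at log2 -6.53, Serping1, the C1 inhibitor that also blocks contact-system proteases, at -6.40, and the protease-activated receptor F2rl1 at -5.75. In macrophage-like cells Vtn had a mean of 0.158 ± 0.154 CPM, near the floors of 3 counts, 0.126, 0.335 and 0.165 CPM, so its fold is uncertain. Serping1 had 18.9 ± 12.9 CPM there and 1542 ± 125 CPM in fibroblast-like cells. Fibroblast markers lay in macrophage-like cells at 1.02% to 2.12% of their fibroblast-like level. The part of free fibroblast RNA in these values was not tested.

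Monocyte-like cells were set against macrophage-like cells. Of the 9 members, 3 were called higher and 2 lower, where 17.6% of 13521 genes were called, 7.26% higher and 10.3% lower. F13a1 was higher by 2.80 ± 0.36 on the log2 scale (SE; edgeR adjusted p 1.65e-07). Thbd, at 29.98, 32.6 and 19.9 CPM in monocyte-like and 8.53, 10.1 and 9.78 CPM in macrophage-like cells, was higher by 1.51 without overlap. Serpinb2 was higher by 1.69, with 6.04 CPM as the lowest monocyte-like value and 3.69 CPM as the highest macrophage-like value. F3 fell by 2.15, at 1.79, 0.572 and 2.21 CPM in monocyte-like cells. These values rested on 8, 1 and 4 UMIs, and that of library 2 lay under its floor of 3 counts, 1.72 CPM. Plau fell by 1.29 (edgeR adjusted p 0.0034), by 2.64 without replicate 1, and by 0.99, below the fold asked, without replicate 2. F10 (log2 -0.45, edgeR adjusted p 0.257), Plaur (0.61, 0.0114), Plat (0.40, 0.53) and Serpine2 (-0.65, 0.268) were not called.

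Of the listed genes, 1 of 23 tested was higher and 7 lower, where 7.26% and 10.3% of all genes were. Their median was -0.70 against -0.14 over all genes. F5 was at 124 ± 36.0 CPM in monocyte-like cells and 8.15 ± 1.31 CPM in macrophage-like cells (SD, n = 3; log2 3.85, edgeR adjusted p 1.81e-10). F7 went the other way, at 13.9 ± 7.75 CPM in monocyte-like and 162 ± 15.9 CPM in macrophage-like cells (log2 -3.72). Vldlr, which takes up protease-serpin complexes, had no UMI in monocyte-like cells and 1.04 CPM over all macrophage-like UMIs, at least 2.78-fold lower against a floor of 3 counts over the group. F2rl2, a protease-activated receptor, was lower at log2 -2.93, with 0.375 ± 0.325 CPM in monocyte-like and 1.85 ± 0.947 CPM in macrophage-like cells. This monocyte-like mean lay under the floors of 3 counts in the libraries, 0.671, 1.72 and 1.66 CPM, so the size of the fall is uncertain.

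**Figure D2:**
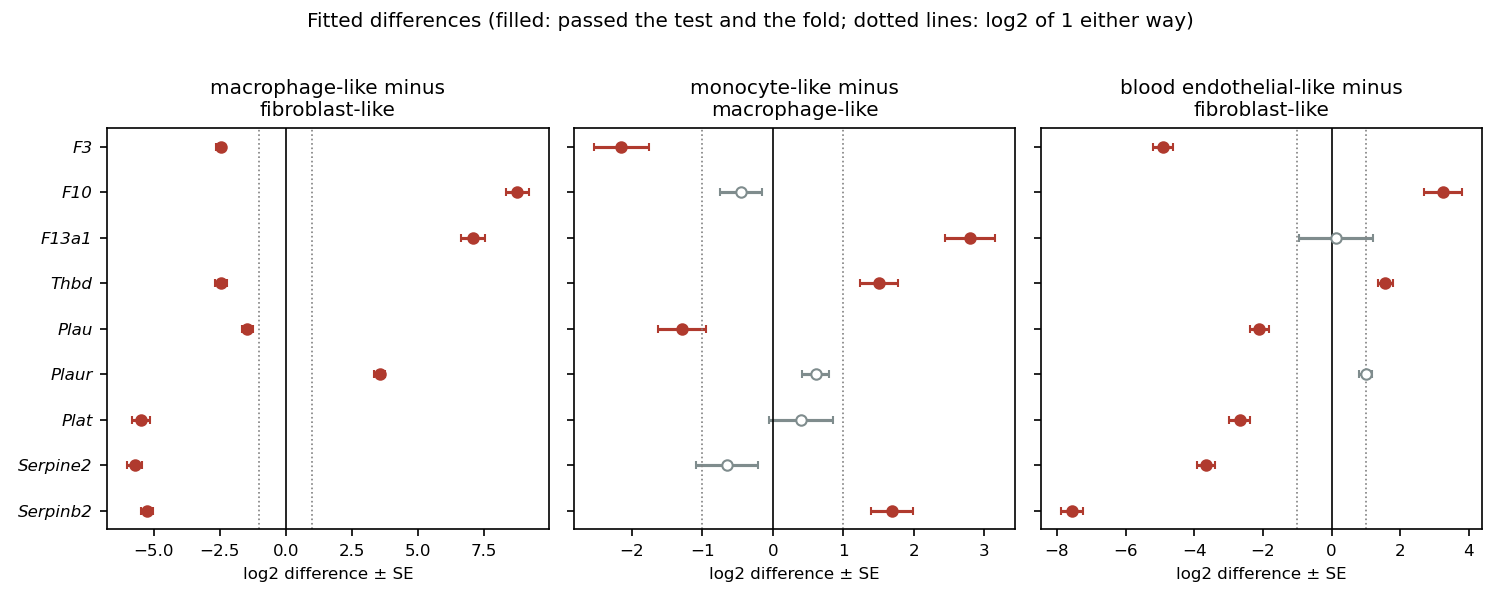
Fitted log2 difference (x axis, own scale per panel) of the 9 members (y axis) in 3 class comparisons, with SE bars; filled points were called. F10 is at 8.78 in macrophage-like minus fibroblast-like cells and at -0.45, not called, in monocyte-like minus macrophage-like cells.

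Blood endothelial-like cells were set against fibroblast-like cells. Members were called 2 higher (F10 and Thbd) and 5 lower (F3, Plau, Plat, Serpine2 and Serpinb2), where 31.3% of 13521 genes were called, 14.1% higher and 17.2% lower. Thbd was higher by 1.56 ± 0.22 on the log2 scale (SE; edgeR adjusted p 1.7e-07). Serpinb2 fell by 7.56 and F3 by 4.92, or by 6.06 and 4.13 with no doublets removed. The others fell less, Serpine2 by 3.67, Plat by 2.68 and Plau by 2.10. Serpinb2 had 3, 2 and 2 UMIs in blood endothelial-like cells and F3 had 5, 7 and 5. The Serpinb2 values, 0.635, 0.493 and 0.867 CPM, lay at or under their floors of 3 counts, 0.635, 0.739 and 1.30 CPM. The size of its fall is therefore uncertain. Serpinb2 was at 0.603% and F3 at 3.63% of the fibroblast-like level, and fibroblast markers at 0.970% to 7.17%. The part of free fibroblast RNA was not tested. Plaur, at 59.0, 66.3 and 47.3 CPM in blood endothelial-like cells, had a log2 difference of 0.99, just under the fold asked, and of 1.09, a call, when scaled by total UMIs. F13a1 was at log2 0.12 (edgeR adjusted p 0.932), from 4, 3 and 2 UMIs in blood endothelial-like cells.

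The F10 call in endothelium rested on 43, 1 and 18 UMIs in libraries 1, 2 and 3, or 9.10, 0.246 and 7.80 CPM. The value of library 2 lay under its floor of 3 counts, 0.739 CPM, so its place relative to fibroblast-like cells was not detectable at this depth. With no doublets removed, library 2 had 20 UMIs, 4.10 CPM, against 0.756 CPM in fibroblast-like cells. Its log2 difference was 3.24 ± 0.56 (SE; edgeR adjusted p 7.95e-06). Subclusters End3 and End5 held 24 and 32 of the UMIs, and End2, with Selp and Sele among its leading genes, held none in 221 cells, where a count of 0 allows up to 1.90, 2.12 and 3.23 CPM in the 3 libraries. Macrophage markers lay in blood endothelial-like cells at 0.437% to 6.62% of their macrophage-like level, with F10 at 2.63%; their part in the result was not tested. End5 had 35, 3 and 33 cells.

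Endothelial subclusters were described by levels alone. Thbd was at 118, 202 and 106 CPM in End1, 104, 147 and 95.8 CPM in End2 and 225, 200.1 and 187 CPM in End3, so End3 lay above End2 in every library. End1 had a median of 1270 UMIs per cell and neutrophil and macrophage genes among its leading genes.

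Of the listed genes, 7 of 23 were higher and 10 lower in blood endothelial-like cells, where 14.1% and 17.2% of all genes were. Their median was -0.10 against 0.04 over all genes. Vwf had 473 ± 116 CPM in blood endothelial-like cells and 0.355 ± 0.0105 CPM in fibroblast-like cells (SD, n = 3; log2 10.21), F5 was higher by 6.73 and F8, the cofactor of factor IX, by 3.87. The kininogen gene Kng2 was lower at log2 -6.70, the endocytic receptor Lrp1 at -5.52 and the collagen receptor Mrc2 at -5.34. The Kng2 mean of 0.227 ± 0.217 CPM in blood endothelial-like cells lay under the floors of 3 counts, 0.635, 0.739 and 1.30 CPM, so its fold is uncertain.

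Macrophage-like cells were split into states, and 4 entered the fit. Left out were Mac4 (444 cells, with fibroblast genes such as Dcn in the lead), Mac5 (muscle fibre genes, few UMIs), Mac6 (neutrophil genes) and Mac8 (few cells). All of these stayed in the macrophage-like class. Mac4 held 41.9% ± 23.3 of that class's Serpine2 UMIs and 26.8% ± 1.72 of its Plat UMIs (SD, n = 3). It made up 14.4% of the cells, and its part in the class levels was not tested. Mac1 (919 cells; Dnm3, Pcdh7 and Mmp12 lead) had 8136 CPM of Mmp12, Mac2 (722 cells; Ccl24, Tarm1 and Acss2) had 833 CPM of Ccl24, Mac3 (462 cells; Mir99ahg, Zdhhc14 and Pdgfc) had 2584 CPM of C1qa and 554 CPM of Mrc1, and Mac7 had 106 cells with the immunoglobulin genes Ighg2c and Igkc and Frmd5 at its head. Mac7 also had a median doublet score of 0.0511, against 0.0261 in Mac1. Subclusters were built without members, so levels between them describe the members, while any gene that varies with a member could have shaped them.

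Of the 9 members tested in each state, Mac1 had 1 called higher and 2 lower, where 2.89% of 10877 genes were called higher and 5.07% lower. Mac2 had 1 higher and 0 lower, with 1.10% of genes higher and 4.56% lower. Mac3 had 1 higher and 2 lower, with 3.31% of genes higher and 2.34% lower, and Mac7 had 2 higher and 0 lower, with 6.93% of genes higher and 1.11% lower. Of the members not called lower in Mac2 and Mac7, Serpinb2 in Mac2 (log2 -1.66, edgeR adjusted p 0.0635) and F10 in Mac7 (log2 -0.48, edgeR adjusted p 0.00167) came nearest.

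F10 was highest in Mac2, at 379, 427 and 378 CPM, then Mac1 at 248, 237 and 231 CPM, Mac7 at 123, 165 and 127 CPM and Mac3 at 66.0, 72.1 and 63.2 CPM. The 4 ranges do not overlap. Mac2 against the mean of the other states differed by 1.56 ± 0.08 on the log2 scale (SE; edgeR adjusted p 3.36e-09), where 5.66% of 10877 genes were called and 1.10% were called higher, and Mac3 fell by 1.82 (edgeR adjusted p 1.43e-09), where 5.65% were called and 2.34% lower. F10 was among the top 10 genes of Mac2 by fold.

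F13a1 had another order. Mac3 had 151, 219 and 255 CPM and Mac7 200.2, 179 and 427 CPM, Mac2 had 99.3, 80.4 and 105 CPM, and Mac1 had 13.3, 7.86 and 10.98 CPM. Mac1 lay below every value of the other 3 states, and fell by 3.85 against their mean (edgeR adjusted p 7.87e-10), where 7.96% of genes were called. Mac3 was higher by 1.62 (2.59 without Mac7) and Mac7 by 2.07, the second where 8.04% were called. Mac2, the state highest in F10, differed by 0.15 and was not called (edgeR adjusted p 0.553). Thbd was also lowest in Mac1, at 3.19, 1.90 and 4.10 CPM, and fell by 1.93. In Mac3 its difference of 0.90 became a call of 1.27 without Mac7.

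F3 was highest in Mac1 at 9.46, 8.95 and 18.4 CPM, higher by 2.24 ± 0.28 (SE; edgeR adjusted p 9.24e-06). The other 3 states had at most 6.71 CPM. Its fall of 1.87 in Mac3 lost its call without replicate 1 (adjusted p 0.0671) or replicate 3 (adjusted p 0.151, log2 -1.17). Plaur was at 369, 376 and 307 CPM in Mac1 and 192, 154 and 171 CPM in Mac3, differences of 0.72 and -0.75, under the fold asked. Plau, Plat and Serpine2 were called in none of the 4 states, at adjusted p of 0.0805 or more. Serpinb2 was called higher in Mac7 (log2 1.94, edgeR adjusted p 0.041) from 14.1, 0 and 4.47 CPM, was at 2.70 without replicate 2, and lost that call without replicate 1 (log2 0.41), without replicate 3, and without doublet removal.

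**Figure D3:**
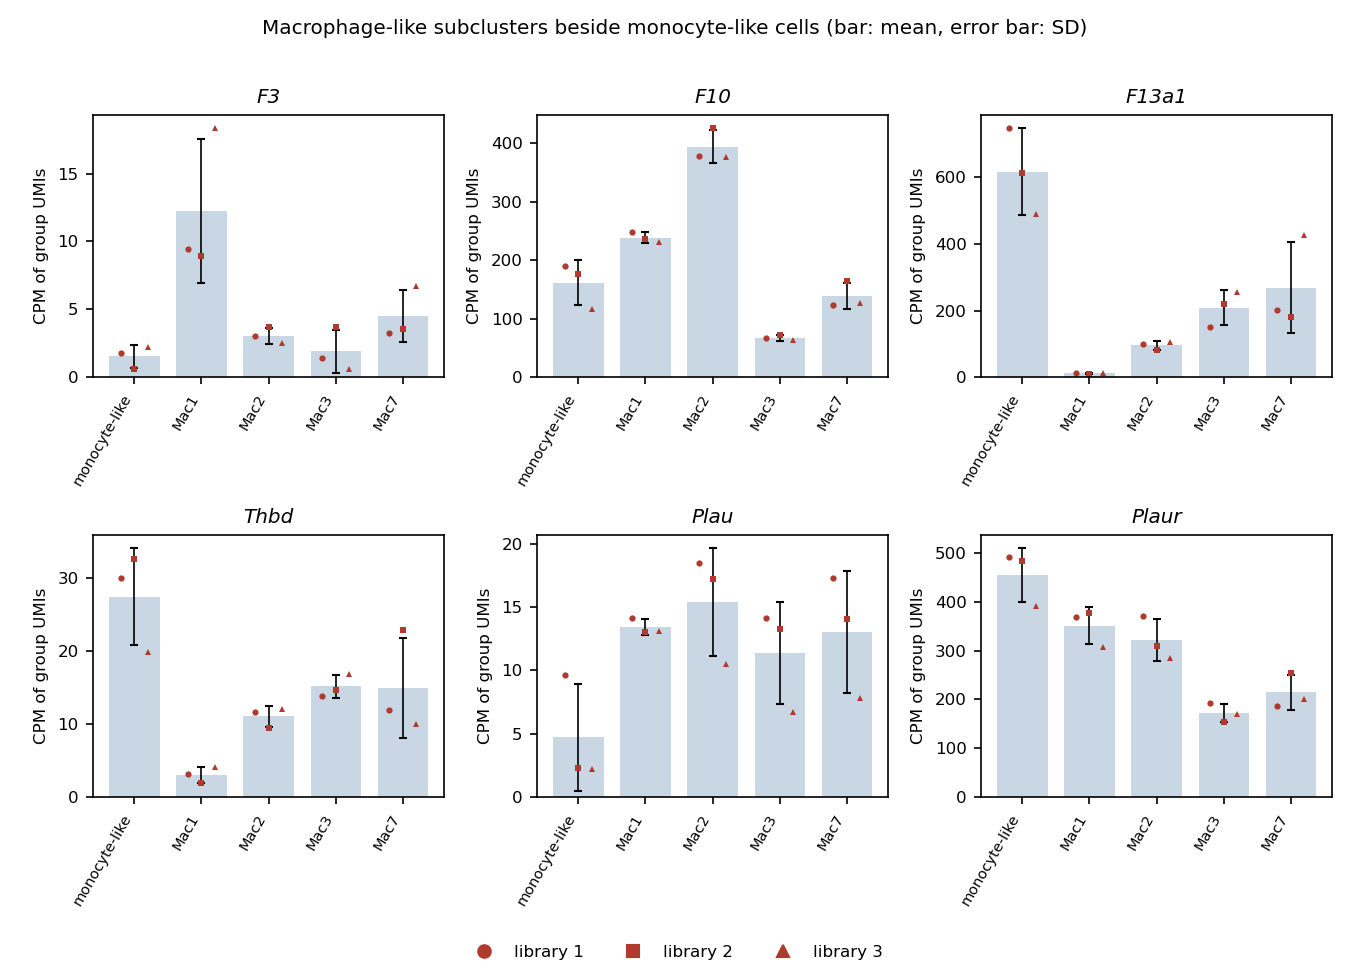
CPM (y axis, linear, a scale per panel) of 6 members in monocyte-like cells and 4 macrophage-like states (x axis), bars for the mean, error bars for the SD and points for the 3 libraries. F10 peaks in Mac2 at 394 CPM, and F13a1 is lowest in Mac1 at 10.7 CPM.

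Fibroblast-like cells fell into subclusters with distinct member levels. Of 10 subclusters, 5 entered the fit, and the other 5 were left out because their leading genes included a marker of another class. Those left out were Fib3 (1477 cells), Fib4 (1433), Fib5 (1161), Fib9 (151) and Fib10 (125), a large part of the 9884 fibroblast-like cells. In the text below, rankings of subclusters cover the 5 that entered, and levels of those left out are given for Serpinb2 alone. Fib1 (1932 cells) was led by Car8, Smpd3 and Limch1, Fib2 (1493) by Cxcl5, Olfr810 and Spp1, Fib6 (1038) by Inmt, Lsamp and Grm8, Fib7 (698) by Saa3, Ctla2a and Mmp3, and Fib8 (376) by the cell cycle genes Hist1h2ap, Top2a and Mki67. F10 and F13a1 did not pass the filter on low counts there, so 7 members were tested. Fib1 had 2 called higher and 3 lower, where 8.57% of 13520 genes were called higher and 9.49% lower. Fib2 had 2 higher and 1 lower, with 7.29% of genes higher and 7.65% lower, and Fib6 had 2 higher and 3 lower, with 12% higher and 6.62% lower. Fib7 had 1 higher and 1 lower, with 6.24% higher and 10.0% lower, and Fib8 had 2 higher and 2 lower, with 10.7% higher and 9.44% lower. Of the genes called, 38.4% were higher in Fib7 and 53.1% in Fib8, against 21.1% and 65.0% when scaled by total UMIs.

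Serpinb2 was concentrated in Fib2 and Fib8. Fib2 had 393, 298 and 318 CPM, and Fib8 had 211, 228 and 266 CPM, against at most 9.15 CPM in any library of Fib1, Fib6 and Fib7. Fib2 was higher by 5.14 ± 0.18 on the log2 scale (SE; edgeR adjusted p 3.85e-12), where 14.9% of 13520 genes were called, or by 4.55 with all 10 subclusters in the fit, and Fib8 by 4.42 ± 0.19 (edgeR adjusted p 1.6e-11), where 20.1% were called. Together they held 84.1% ± 5.97 of the Serpinb2 UMIs of fibroblast-like cells with 18.8% ± 0.417 of the cells (SD, n = 3), a pair put together after their values were seen. The left-out Fib3, Fib9 and Fib10 had 79.0 ± 44.1, 96.3 ± 109 and 75.4 ± 64.3 CPM, with library 2 alone at 222 CPM in Fib9.

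Within Fib2, 26.2% ± 3.63 of cells thinned to 5000 UMIs held a Serpinb2 UMI, against 1.48% ± 0.873 in Fib1 and 0.162% in blood endothelial-like cells. Before thinning these shares were 39.5%, 3.70% and 0.811%. Thinning left out 13 of 1493 Fib2 cells but 347 of 864 blood endothelial-like cells, which were too shallow, so the endothelial shares before and after it cover different cells. Serpinb2 was thus in a minority of Fib2 cells at this depth, whereas Serpine2 was in 71.9% ± 3.01 of them after thinning, against 6.45% of blood endothelial-like cells.

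Serpinb2 fell by 2.58 in Fib1, 4.81 in Fib6 and 2.17 in Fib7, the last by 3.80 without replicate 2. Each subcluster is set against the mean of the others in the fit, which here includes Fib2 and Fib8. These falls are therefore not separate from the high levels of Fib2 and Fib8. Thbd was the member that fell in Fib2, by 1.11, a call lost when scaled by total UMIs (log2 -0.993), without replicate 1 (-0.991), without replicate 3 (-0.965) and with all 10 subclusters in the fit (-0.53).

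Serpine2 was also highest in Fib2 and then Fib8, while the other 3 came in another order. Fib2 had 737, 884 and 876 CPM, Fib8 251, 366 and 521 CPM, Fib6 135, 124 and 168 CPM, Fib7 87.0, 92.9 and 113 CPM, and Fib1 50.4, 37.8 and 34.5 CPM. Fib2 was higher by 2.67 ± 0.12 (SE; edgeR adjusted p 5.87e-11), Fib8 by 1.14, which fell to 0.93 without replicate 3, and Fib1 fell by 2.52, where 18.1% were called. Fib6 (-0.45) and Fib7 (-0.84) were under the fold asked. The level in Fib2 was near that of mural-like cells, whose range of 812 to 1047 CPM overlapped it.

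F3 was highest in Fib6, at 117, 158 and 201 CPM, against 57.8, 84.5 and 71.4 CPM in Fib7 and 11.3, 14.7 and 14.8 CPM in Fib1. No value of Fib6 overlapped another of the 5 subclusters, and it was higher by 2.37 ± 0.12 (SE; edgeR adjusted p 1.19e-10), where 18.6% were called. Fib7 was higher by 1.23 (16.2% called; 0.99, no call, when scaled by total UMIs) and Fib1 fell by 1.90. Fib8 fell by 1.12, and lost that call when scaled by total UMIs (-0.92) and with all 10 subclusters in the fit (-0.91).

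Thbd and Plau were highest in Fib1. Thbd had 179, 143 and 195 CPM in Fib1 and 106, 96.9 and 112 CPM in Fib6, against at most 46.5 CPM in Fib2, Fib7 and Fib8, and was higher by 2.17 ± 0.12 in Fib1 (SE; edgeR adjusted p 2.75e-10) and by 1.13 in Fib6; it fell by 1.62 in Fib8, and by 0.94, no call, with all 10 subclusters in the fit. The Fib1 range overlapped the 149 to 203 CPM of blood endothelial-like cells. Plau had 78.8, 95.5 and 73.4 CPM in Fib1, higher by 1.30, with Fib6 overlapping it at 75.4, 65.1 and 51.6 CPM.

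Plat was highest in Fib1, with a mean of 387 CPM, and its difference there of 0.63 (edgeR adjusted p 4.69e-08) was under the fold asked, as was that of 0.56 in Fib7. Of the 5 subclusters it was called in Fib6 alone, at 143, 150 and 151 CPM, where it fell by 1.25 (edgeR adjusted p 1.56e-10). Plaur was lowest in Fib6 as well, at 7.76, 14.3 and 7.96 CPM, and fell by 1.58. In Fib2 and Fib8 it had means of 44.1 and 44.5 CPM, differences of 0.99 and 0.92 that passed the fold when scaled by total UMIs (1.10 and 1.12) and without replicate 2 (1.05 and 1.09); in Fib2 it also passed with no filter on low counts (1.08) and without replicate 3 (1.07).

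**Figure D4:**
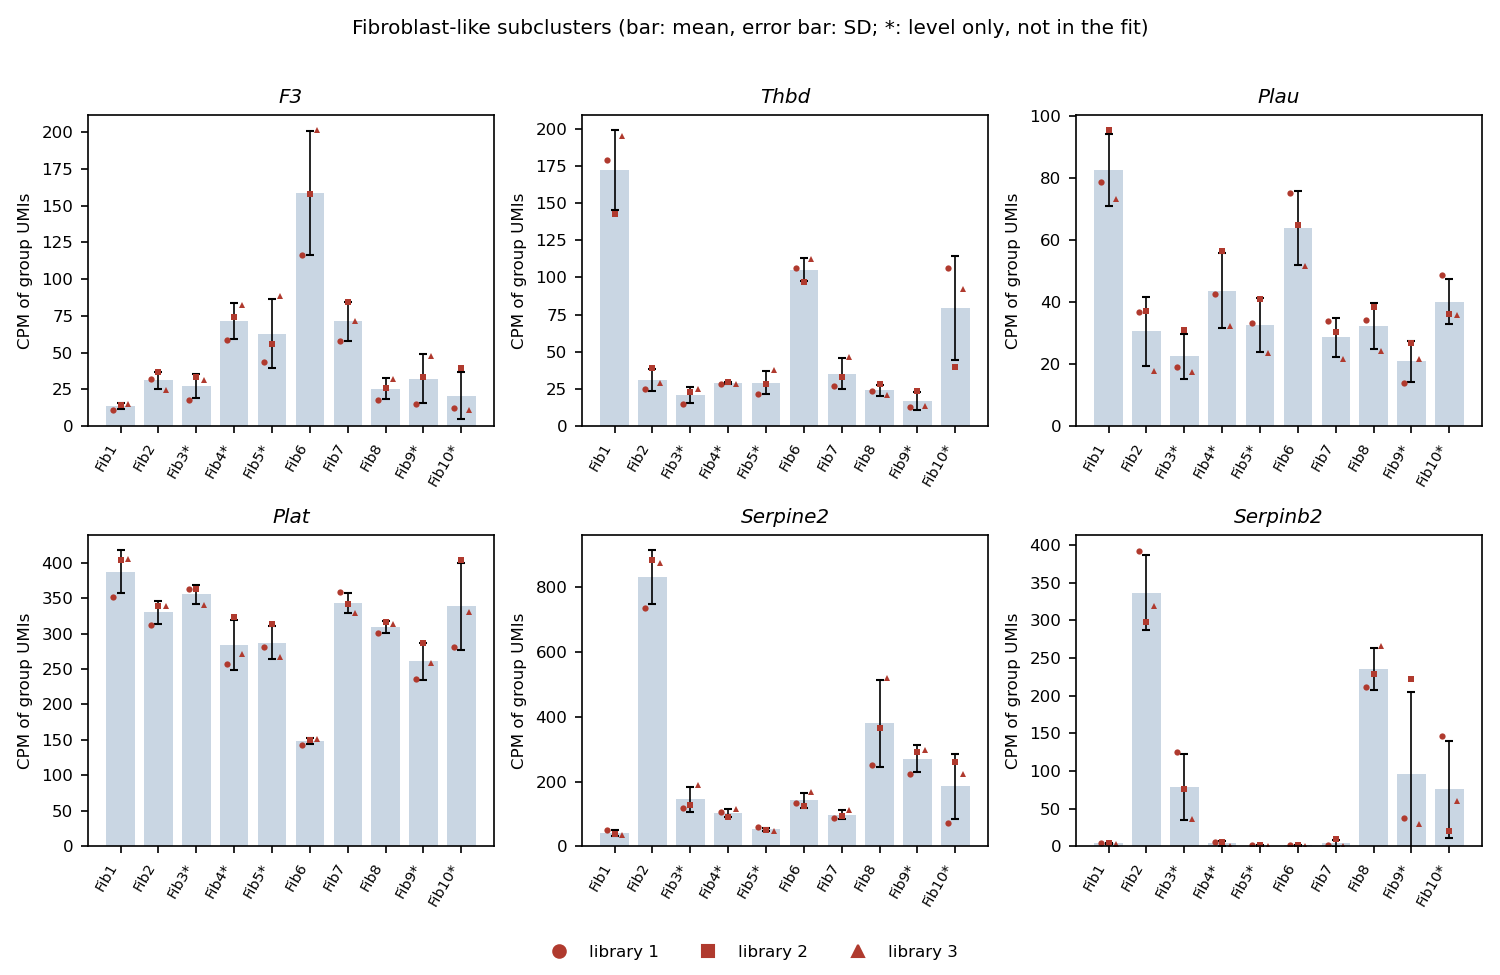
CPM (y axis, linear, a scale per panel) of 6 members in 10 fibroblast-like subclusters (x axis), bars for the mean, error bars for the SD and points for the 3 libraries; an asterisk marks subclusters outside the fit. Serpinb2 and Serpine2 peak in Fib2 at 336 and 832 CPM, F3 in Fib6 at 159 CPM.

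The genes whose class means ran most like each member, by Pearson's r of log2(CPM + 1) over the 12 classes, are given as a description; the 12 points share 3 libraries, and a gene named here need not be highest in the same class as its member. For F10 they were Tatdn2, Clec4e and Olr1 (r 0.97 each), for F13a1 Clec4a1, Adgre4 and Aoah (0.96, 0.96 and 0.95), and for Plaur Slfn2, Gch1 and Samsn1 (0.95, 0.94 and 0.93). For Thbd they were Cyth2, Sept10 and Hoxb4 (0.97, 0.95 and 0.95), for Plat Trim46, Fkbp7 and Gpx7 (0.97 each), and for Serpine2 Plac9b, Hic1 and Lrig1 (0.96, 0.95 and 0.95). For F3 they were Gm12840, Arhgap24 and Slc44a1 (0.89, 0.86 and 0.86), for Plau Rnf121, Slc39a1 and Pi4k2b (0.93, 0.91 and 0.89), and for Serpinb2 Adamts19, Olfr810 and Cxcl13 (0.89, 0.89 and 0.87).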

How the data were processed

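Cells of 3 libraries were profiled with 10x 3′ chemistry (version 3.1, per the labels). The authors deposited filtered matrices of raw UMI counts per gene and barcode; cellranger 7.0.0 stands in the matrix headers and Cell Ranger 6.1.2 in the submitters' processing notes, and neither states a genome build or annotation. The members and gene lists were chosen with earlier results of these data known. Barcodes with at least 500 UMIs and 200 genes and at most 20% mitochondrial UMIs were kept; the barcodes with the highest Scrublet scores were removed at a preset rate of 0.8% per 1000 barcodes (295, 598 and 200), where Scrublet's own threshold marked 76, 153 and 30. Leiden clusters (scanpy, 2000 variable genes without members or list genes, 30 components, 15 neighbours, resolution 1.0) were named from markers (at least 3 detected, best class at least 1.5 times the next); subclusters also left class markers out. UMIs were summed per library and class and tested in edgeR 4.0.16 (R 4.3.3; filterByExpr, TMM, library block, because classes of a library share a suspension). The test was also run on simulated counts with known folds in macrophage-like sums. Those counts gave all classes a common profile and libraries no effect beyond their totals. That run therefore could not check the scaling between unlike classes or the block. DESeq2 1.42.0, other scalings and filters, each replicate left out, and other cell sets were alternatives. All 9 members are named; of the listed genes, up to 3 called per direction with the largest log2 difference; for each member, 3 genes with the highest r. Where a group held no UMI, a floor of 3 counts is given; floors cover counting error only.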

Additional observations from a re-analysis of the deposited data

Results flagged for a closer look

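Members were also detected in classes with too few cells for the comparisons, pooled over the 3 libraries and above the limit that a count of 0 allows (3 counts of the class total); no explanation was tested. Such small classes hold few cells, so 1 library can decide a value. In 47 NK cell-like cells, F13a1 had 160 CPM, Plaur 114, F10 27.8, Thbd 13.9 and Serpine2 10.8. In 67 mast cell or basophil-like cells, Plaur had 167 CPM, F13a1 77.7, Serpine2 51.2, F10 39.8, Plau 32.2, Serpinb2 20.9, Plat 11.4 and Thbd 9.48. In 71 migratory DC-like cells, Plaur had 89.7 CPM, F13a1 66.2, F10 48.5 and Plat 19.1. In 54 satellite cell or myoblast-like cells, Plat had 92.8 CPM, of which 53 of 61 UMIs came from library 1, while Plau had 28.9, Plaur 25.9, Thbd 16.7 and F3 13.7. In 65 T cell-like cells, F13a1 had 20.4 CPM and Plaur 11.9, and in 11 B cell-like cells Plaur had 36.7 CPM.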

How the results depend on the processing

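Of 1090 values of members recomputed under other settings, 1047 kept their direction and their side of the threshold, 16 lost a call, 10 gained one and 17 changed sign, none of these 17 being a call in either setting. The causes were not tested. Sign changes were F13a1 in blood endothelial-like against fibroblast-like cells (-0.088 with no filter on low counts, -0.022 with at least 1000 genes per cell, -0.39 without endothelial subcluster 1, and -0.075 to 0.34 with a replicate left out), Serpine2 in monocyte-like against macrophage-like cells (0.77 with no doublet removal) and Plat there (-0.35 to 0.92 with a replicate left out). In macrophage states Plat in Mac1 was 0.003 with no filter and 0.31 without Mac7, and Plat in Mac2 0.52 with no doublet removal. With a replicate left out, Plat (-0.19 to 0.17) and Plau (-0.098 to 0.41) in Mac1, Serpine2 in Mac2 (-0.40 to 0.04), Serpinb2 in Mac3 (-0.30 to 0.88), and F3 (-0.32 to 0.41) and Plau (-0.21 to 0.014) in Mac7 crossed 0. With scaling by total UMIs, Plaur in Fib7 was -0.11 and Plat in Fib8 0.13; with it the median log2 difference of all genes was -0.23 in Fib7, against 0.01 with TMM. With RLE the median in macrophage-like against fibroblast-like cells was -0.20, against 0.06 with TMM, and no member's call or direction changed.

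Counts of called genes that moved by over 1.5 times were those called lower with no filter (5642 against 3286 for macrophage-like, 3810 against 2323 for blood endothelial-like, both against fibroblast-like cells, and 202 against 121 for Mac7), higher in Fib2 with no filter (1603 against 985), in Fib7 with total UMIs (554 higher against 843, 2066 lower against 1352) and over all fibroblast subclusters (434 higher), higher in Mac2 with no doublet removal (203 against 120), and without Mac7 322 lower in Mac1, 195 higher in Mac2 and 598 higher in Mac3. Leaving out a replicate gave 292 to 462 genes lower in Mac2, against 496. With levels taken as a mean over cells, 28 of 108 class levels of members moved by more than 1 SD. Of levels in a member's highest class, F3 (57.0 CPM) and Serpinb2 (69.9 CPM) in fibroblast-like cells did so. Elsewhere, F13a1 in macrophage-like cells was at 124 CPM, against 84.8 CPM. Serpine2 in fibroblast-like cells was at 215 CPM, against 287.5 CPM, and then lay below the 284 CPM of Schwann-like cells. Alternatives without Mac7, without End1 and over all fibroblast subclusters were chosen after seeing the data. Without the replicate block, in which classes of a library are paired by the shared suspension, Serpinb2 in Mac7 lost its call (1.91, adjusted p 0.0565); no other call of a member changed. Over all 10 fibroblast subclusters, Thbd in Fib2 (-0.53), F3 in Fib8 (-0.91) and Thbd in Fib8 (-0.94) fell under the fold asked. Serpinb2 in Mac2 became a call with no filter (-1.63, adjusted p 0.0109), and Serpine2 in Fib7 with total UMIs (-1.09). With no doublets removed, 28 of 108 class levels of members moved by more than 1 SD, 27 of them upward, such as F10 in lymphatic endothelial-like cells (10.2 CPM, against 0.660 CPM). A group total sets the lowest level that can be told from 0: the floor of F10 in blood endothelial-like cells was 0.635, 0.739 and 1.30 CPM.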
